A study of Mus musculus with 6 samples.

Results

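The Hox clusters are 4 runs of homeobox genes, Hoxa, Hoxb, Hoxc and Hoxd, and their accessibility was described here in crypts of the mouse intestine. A list of 38 genes of these clusters was matched by symbol to the GENCODE M21 annotation of GRCm38, out of 21853 protein-coding genes, and every count of Hox genes refers to these 38. In each peak list the peaks with a summit between the first and the last gene of a cluster, plus 10 kb on either side, were collected and assigned to the nearest gene start. Merging the 6 lists where they shared at least 1 base gave 83 peaks in these windows, of 71286 in the genome. The nearest start belonged to 1 of the 38 genes for 76 of the 83 and to another protein-coding gene for 7.

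Intestinal crypts of 3 WT and 3 Arid3a cKO samples had been profiled by ATAC-seq, in which the Tn5 transposase inserts adapters into open DNA. Arid3a encodes a DNA-binding protein of the ARID family. The cKO mice carried VillinCre-ERT2+/-; Arid3a fl/fl, so that recombination was limited to cells with an active Villin promoter, the epithelium of the gut. Mice of both genotypes received tamoxifen on 3 consecutive days, and crypts were collected 1 month after the first dose. The sample titles name no segment of the gut. For dissociation, the ATAC-seq methods of the study refer to a protocol that took crypts from the proximal jejunum. The age of the mice and the alleles carried by the WT mice beyond that label are not stated in the sources used here. Nothing in the labels ties the samples of a genotype to separate mice, so the spread between them may be partly technical.

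Hox proteins are homeodomain transcription factors that assign positions along the body axis, and in each cluster the order of the genes follows the order in which they are used from head to tail. Genes of the same number in different clusters are paralogues. In cells that do not use them, the clusters are classically covered by Polycomb repression, and in the gut both the epithelium and the mesenchyme around it carry regional Hox codes, with the high-numbered genes used in the hindgut.

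The lists held 40492 to 58297 peaks, with WT 1 the shortest. The background coverage inferred from the peaks was 1.75 to 2.29 fragments per base (read totals were not at hand). Of 15 markers of crypt epithelium, 11 had a peak within 1 kb of the start in all 6 lists, among them Lgr5, Olfm4, Cdh1 and Vil1. None of 12 leukocyte markers had a peak there in any list, 7 of 12 mesenchyme markers had none, as did 5 of 7 endothelial markers and 4 of 6 markers of enteric neurons and glia. Peaks were present in all 6 lists at Col1a1, a collagen gene of fibroblasts, at the endothelial Kdr and Cldn5, and at Ret, of enteric neurons. Such cells were therefore not shown to be absent, and their part in the Hox signal was not tested. Arid3a itself had a peak within 1 kb of its start in all 6 lists, at a fold of 6.48, 7.41 and 6.55 in WT and 5.93, 6.53 and 5.54 in cKO. A promoter peak does not report on deleted exons, so it checks no label.

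In each cluster the strongest peak called in all 6 lists within 1 kb of the start of 1 of the 38 genes is shown by 200 bases around its median summit, because these sequences carry the composition described further on. They were read from GRCm38 on the strand of the gene, 5′ to 3′, with every CG dinucleotide in capitals. The peaks were at Hoxa4 (chr6:52191052-52191251, minus strand, summit in an intron), Hoxb9 (chr11:96271708-96271907, plus strand, summit in a coding exon), Hoxc6 (chr15:103009911-103010110, plus strand, summit in an intron) and Hoxd13 (chr2:74668354-74668553, plus strand, summit in a coding exon).
Hoxa4: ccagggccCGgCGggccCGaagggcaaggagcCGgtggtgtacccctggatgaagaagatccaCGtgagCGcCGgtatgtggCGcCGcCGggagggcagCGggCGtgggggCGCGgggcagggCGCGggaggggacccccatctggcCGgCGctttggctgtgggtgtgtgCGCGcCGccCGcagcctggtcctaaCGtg
Hoxb9: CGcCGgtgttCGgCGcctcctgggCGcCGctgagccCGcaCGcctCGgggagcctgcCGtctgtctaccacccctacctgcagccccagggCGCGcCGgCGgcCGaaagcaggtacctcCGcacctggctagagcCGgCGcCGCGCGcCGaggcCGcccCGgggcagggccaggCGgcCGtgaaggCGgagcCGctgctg
Hoxc6: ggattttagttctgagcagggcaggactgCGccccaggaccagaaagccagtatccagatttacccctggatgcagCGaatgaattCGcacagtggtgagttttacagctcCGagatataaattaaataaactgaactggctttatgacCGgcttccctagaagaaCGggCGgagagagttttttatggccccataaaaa
Hoxd13: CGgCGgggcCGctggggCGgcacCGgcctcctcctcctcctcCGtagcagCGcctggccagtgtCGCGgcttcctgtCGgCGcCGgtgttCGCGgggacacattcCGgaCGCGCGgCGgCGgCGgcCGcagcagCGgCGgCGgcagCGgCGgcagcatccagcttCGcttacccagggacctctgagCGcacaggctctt
The Hoxa4, Hoxb9 and Hoxd13 stretches held 23, 28 and 29 CG dinucleotides, more than 93.5%, 97.2% and 97.7% of all consensus peaks had in the same length. The Hoxc6 stretch held 7, more than 73.2% of consensus peaks, and unlike the other three it held matches to the ARID3 and CDX letters given further on.

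Peaks were dense per kb in the Hox clusters and weak. The 4 windows together held 6.90, 10.4 and 10.97 peaks per 100 kb in the WT lists and 11.9, 9.03 and 10.3 in the cKO lists. Over all protein-coding genes with the same 10 kb on either side, the density was 2.46, 3.04 and 3.27 in WT and 3.45, 2.80 and 3.06 in cKO. The Hox windows were thus 2.80 to 3.44 times as dense per kb in every list. They hold the 38 genes in 565 kb. Peaks per gene start were not computed for either set, so the part of close gene packing in this density was not tested. Strength was read as the fold enrichment, which sets the fragments piled up at a summit against the background around it, and as the percentile of that fold within the list. The median Hox peak had a fold of 3.84 to 4.69, against 5.26 to 6.24 for whole lists, and stood at the 21.5th to 31.7th percentile. Its pileup was 16 to 29 fragments. The strongest peak with a summit inside a window reached the 60.1st to 69.7th percentile. These are descriptions without a test.

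**Figure D1:**
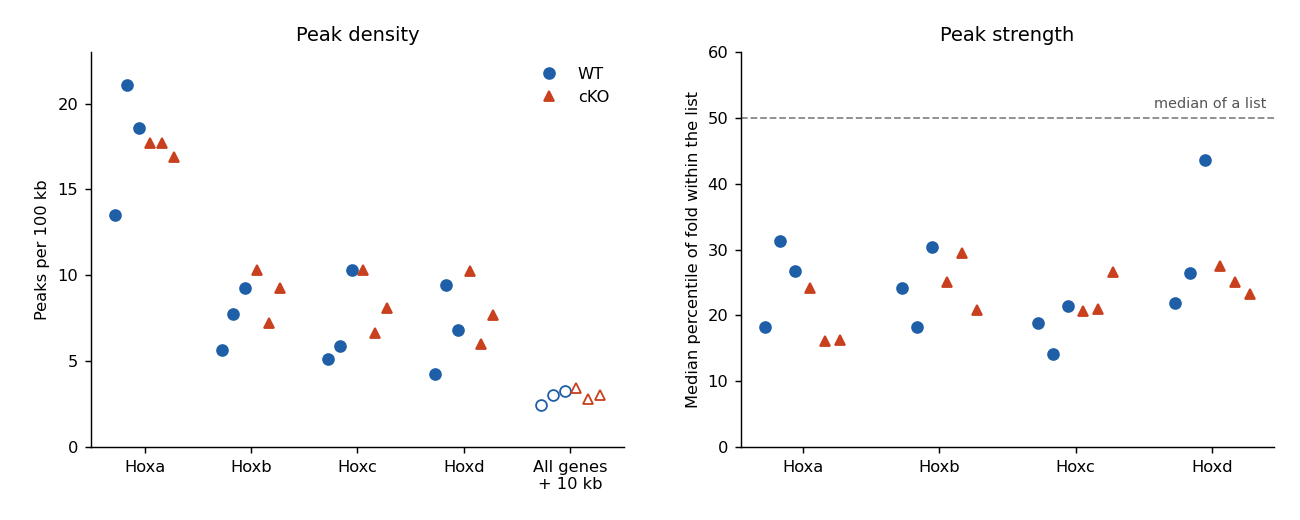
Peaks per 100 kb (left) and the median percentile of peak fold within each list (right) for the 4 Hox windows, 1 point for each list (circles WT, triangles cKO), with all protein-coding genes plus 10 kb as open symbols on the left. Hoxa held 13.5 to 21.1 peaks per 100 kb, above the other clusters in every list, and all 24 medians on the right lie under the 50th percentile.

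Hoxa was the densest cluster. Its window (chr6:52152417-52270880, 118 kb, 10 members, all on the minus strand) held 16, 25 and 22 peaks in WT and 21, 21 and 20 in cKO, and peaks covered 10.1% ± 2.94 (SD, n = 3) of it in WT and 11.6% ± 2.23 in cKO. Of its 29 consensus peaks 13 were called in all 6 lists. The longest stretch without a peak was 11357 bp and held Hoxa2.

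Hoxb was sparser and broken by a gap. Its window (chr11:96184316-96378256, 194 kb, 10 members) held 11, 15 and 18 peaks in WT and 20, 14 and 18 in cKO, and 7 of its 20 consensus peaks were in all 6 lists. The longest stretch without a peak, 30659 bp, lay between Hoxb13 and Hoxb9, where the cluster has no other protein-coding Hox gene.

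Hoxc and Hoxd were the least reproducible from list to list. The Hoxc window (chr15:102911103-103046852, 136 kb, 9 members) held 7, 8 and 14 peaks in WT and 14, 9 and 11 in cKO, and 3 of its 18 consensus peaks were in all 6 lists. The Hoxd window (chr2:74658310-74775142, 117 kb, 9 members) held 5, 11 and 8 in WT and 12, 7 and 9 in cKO, and 4 of its 16 were in all 6. Over the 4 clusters, 27 of 83 consensus peaks (32.5%) were in all 6 lists and 17 in 1 list, against 45.9% and 20.9% of all consensus peaks. Of the 14 Hox peaks in 5 lists, 7 (50%) were missing from WT 1 and 4 (28.6%) from WT 2, against 66.4% and 7.68% of all consensus peaks in 5 lists.

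**Figure D2:**
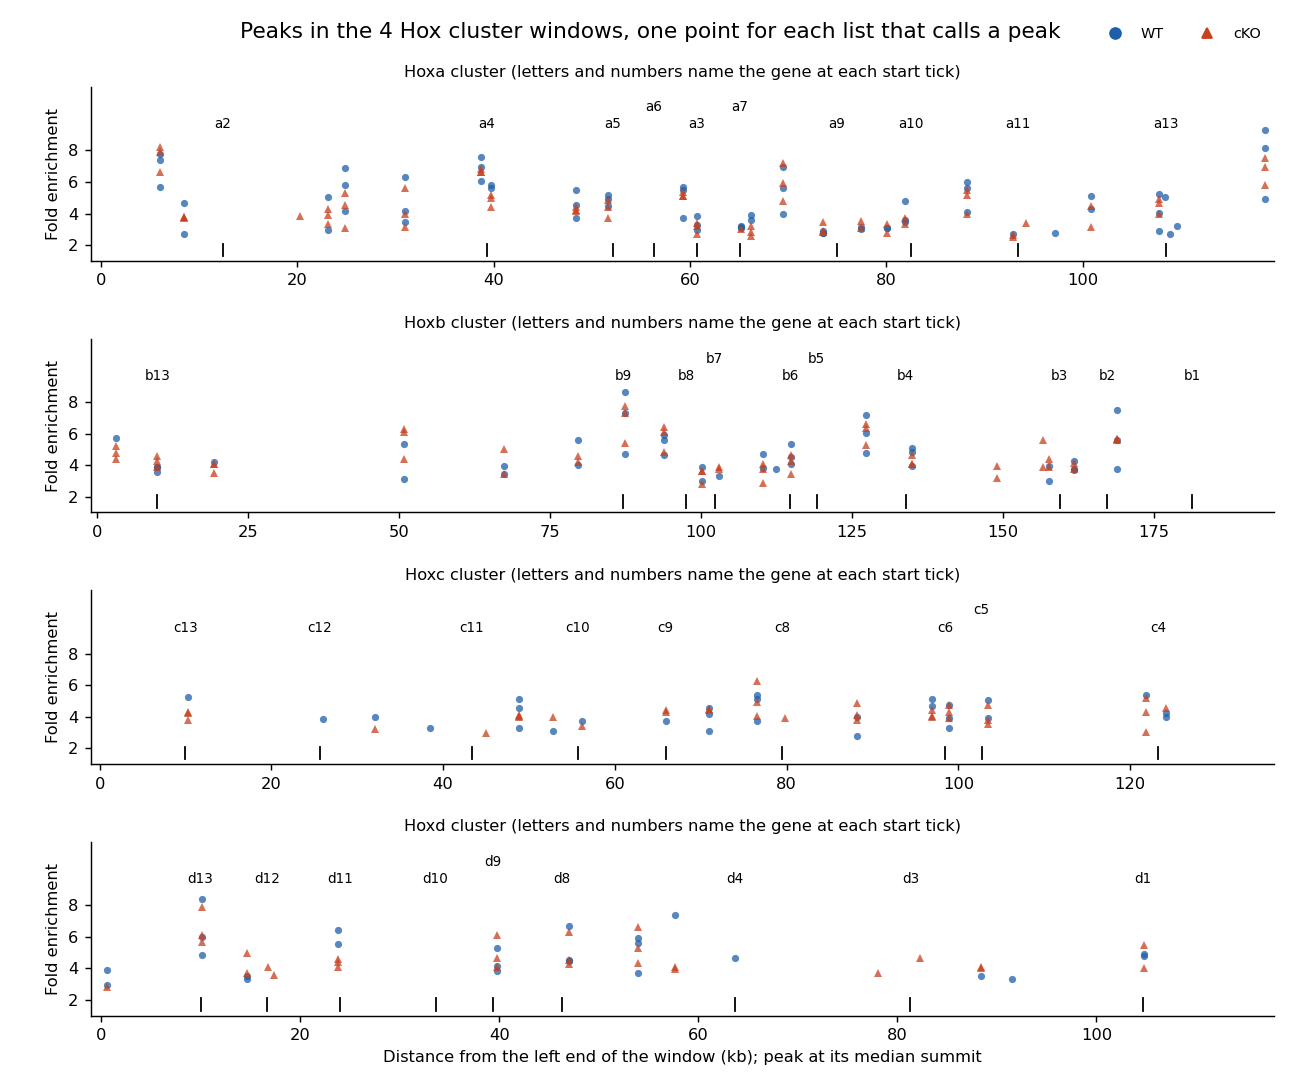
Fold enrichment (ratio to local background) of every peak in the 4 Hox windows against its distance from the left end of the window in kb, with 1 point for each list that called it (circles WT, triangles cKO) and a tick at the start of each of the 38 genes. The longest stretch without peaks is 11357 bp in Hoxa, around Hoxa2, and 30659 bp in Hoxb, to the right of Hoxb13.

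The next comparison was between open and closed members. With a promoter peak defined as a summit from 1000 bp upstream to 100 bp downstream of the start, 0 of 38 Hox genes had one in all 6 lists, against 29.2% of protein-coding genes. For 24 of 38 there was one in no list, against 48.1% of protein-coding genes, and 14 had one in 1 to 5 lists. When the summit could lie within 1000 bp on either side, 11 of 38 were open in all 6 lists and 10 in none, against 53.5% and 37.9% of protein-coding genes. The width of the promoter window therefore set the count of open Hox genes, and values are given for both windows. Without WT 1, 2 genes, Hoxa4 and Hoxd11, had a peak in the narrow window in the 5 lists that remained.

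Within 1000 bp, the 11 genes open in all 6 lists were Hoxa3, Hoxa4, Hoxa5 and Hoxa13, then Hoxb6, Hoxb9 and Hoxb13, then Hoxc6, and Hoxd8, Hoxd9 and Hoxd13. Hoxa7, Hoxa10, Hoxc5 and Hoxd11 followed with 5 lists, and Hoxa11, Hoxc13 and Hoxd1 with 4. Hoxb4, Hoxb7, Hoxc4 and Hoxc9 had 3 lists. Hoxc10 and Hoxd12 had 2, and Hoxc8, Hoxc12, Hoxd3 and Hoxd4 had 1. These counts refer to the main start, which for some genes lies inside the annotated span. The spans of Hoxd3 and Hoxd4 begin at chr2:74711927 and chr2:74711929. A peak with a median summit at 74712213 was called in all 6 lists, at a fold of 3.72 to 6.61. It was assigned to Hoxd8, the nearest main start. The 10 genes closed in all 6 lists were Hoxa2, Hoxa6 and Hoxa9, then Hoxb1, Hoxb2, Hoxb3, Hoxb5 and Hoxb8, then Hoxc11, and Hoxd10. Genes were also grouped by number, which is not the order of the main starts at Hoxa3. Genes numbered 1 to 4 had a peak in 24 of 66 gene and list pairs (36.4%), 6 of them at Hoxa3. Those numbered 5 to 8 had one in 38 of 66 (57.6%) and those numbered 9 to 13 in 56 of 96 (58.3%). Of all protein-coding genes, 55.8% to 59.3% had one in a list, so the last 2 classes stood at that share. In the narrow window the order differed, at 18.2%, 9.09% and 17.7%, against 39.9% to 42.7% of protein-coding genes. Lists of the same gene are not independent, and no test was made. Of the 10 closed genes, Hoxa2, Hoxa6, Hoxb1, Hoxb5 and Hoxd10 were the nearest gene to 0 peaks in every list. The other 5 had peaks farther off, such as Hoxb2, which was the nearest gene to 1 peak in every list, with a median summit 1601 bp downstream of its start.

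**Figure D3:**
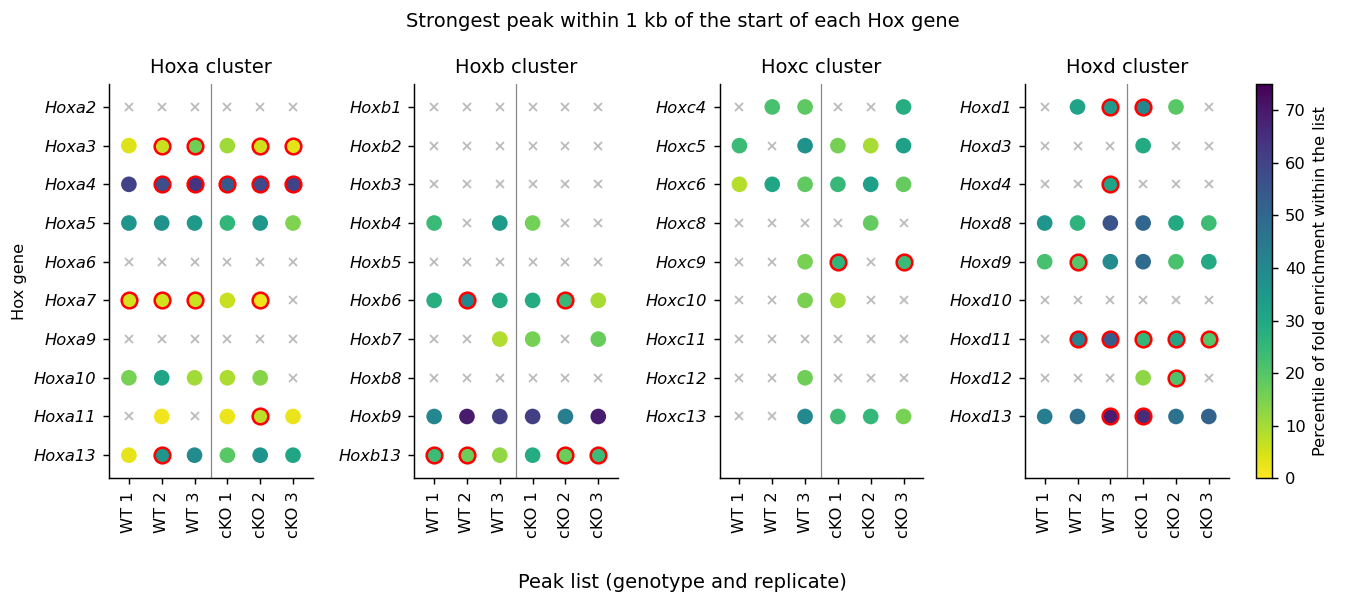
The strongest peak within 1 kb of the start of each of the 38 Hox genes in each of the 6 lists, coloured by the percentile of its fold within the list. A grey cross marks a list without a peak there, and a red ring a list with a peak in the narrower window from 1000 bp upstream to 100 bp downstream, which is not always the coloured peak. Of the 38 rows 11 are filled in all 6 lists and 10 in none, and 0 rows have 6 rings.

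Hoxa4, a gene of the anterior part of the Hoxa cluster, had the highest median percentile of a narrow-window peak there. Its narrow window held no peak in WT 1, a peak of fold 5.79 and 5.65 in the other WT lists, and one of 4.99, 5.17 and 4.39 in cKO. Within 1 kb its strongest peak had a fold of 6.06, 6.98 and 7.56 in WT and 6.61, 6.66 and 6.83 in cKO, at the 53.9th to 63.4th percentile. The genotypes overlapped within 1 kb. In the narrow window both called WT values were above every cKO value, while WT 1 had no peak. How many of all genes show such an order was not counted.

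Hoxa13, at the posterior end and known for its part in the limb and the hindgut, had a peak in the narrow window in WT 2 alone, of fold 5.07. Within 1 kb its strongest fold was 2.88, 5.07 and 5.26 in WT and 3.98, 4.92 and 4.69 in cKO. WT 1 was the lowest of the 6, and the genotypes overlapped. Hoxa11, used in limb and uterus, had a narrow-window peak in cKO 2 alone, at a fold of 3.37.

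Hoxa3, which acts in the pharyngeal region, had no narrow-window peak in WT 1 or cKO 1. Its fold was 3.29 and 3.82 in the other WT lists, against 3.23 and 2.72 in the other cKO lists. The main start of Hoxa3 in the annotation lies between Hoxa6 and Hoxa7, so that its span covers Hoxa4, Hoxa5 and Hoxa6. Hoxa7, a trunk gene, had 3.09, 3.19 and 3.15 in WT and 2.80 in cKO 2. These were among the weakest peaks of their lists, at the 2.93rd to 16.6th percentile for Hoxa3 and the 1.86th to 6.05th for Hoxa7. For Hoxa7 the narrow window held a peak in every WT list and in 1 of 3 cKO lists, and within 1 kb in 3 and 2. These counts refer to its main start, while its annotated span reaches farther upstream, to chr6:52221854. A peak nearest to Hoxa7 with a median summit at 52221852 was called in all 6 lists. Its fold was 3.95, 5.63 and 6.97 in WT and 7.22, 5.93 and 4.79 in cKO, and the genotypes overlapped. Hoxa7 was thus not closed at the upstream end of its span in either genotype.

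Hoxb6, a trunk gene, had narrow-window peaks of fold 5.36 in WT 2 and 4.28 in cKO 2. Within 1 kb all 6 lists had one, at 4.08, 5.36 and 4.54 in WT and 4.62, 4.28 and 3.43 in cKO. Hoxb13, of the hindgut and prostate, had narrow-window peaks of fold 3.91 in WT 1 and in WT 2, 3.89 in cKO 2 and 4.29 in cKO 3. In WT 3 and cKO 1 its summit instead lay 546 and 538 bp downstream of the start. The genotypes overlapped at both genes.

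Among the 11 genes open within 1 kb in all 6 lists, Hoxb9 had the highest median percentile, and yet no peak in the narrow window in any list. It was chosen for its values after they were seen. Its fold was 4.70, 8.62 and 7.29 in WT and 7.31, 5.38 and 7.72 in cKO, at the 40.7th to 69.7th percentile, and its summit lay 214 to 418 bp downstream of the start, in or beside the sequence given above. WT 1 and cKO 2 were the lowest of the 6.

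Hoxc9 was the only Hoxc gene with a narrow-window peak, of fold 4.45 in cKO 1 and 4.31 in cKO 3. Within 1 kb WT 3 had a Hoxc9 peak too, of fold 3.73 and 172 bp downstream. Hoxc6 had a peak within 1 kb in all 6 lists, at a fold of 3.25, 4.71 and 3.93 in WT and 4.32, 4.72 and 3.91 in cKO.

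Hoxd13, which shapes digits and the genitourinary tract, had narrow-window peaks of fold 8.36 in WT 3 and 7.86 in cKO 1, the highest narrow-window values of the 38 genes. In the other 4 lists its summit lay 136 to 413 bp downstream, and over all 6 the fold was 4.83, 6.01 and 8.36 in WT and 7.86, 5.63 and 6.11 in cKO. Hoxd1, which acts in sensory neurons, had narrow-window peaks of 4.92 in WT 3 and 5.48 in cKO 1. Neither gene separated the genotypes.

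A few other genes were singled out after their values were seen. Hoxd11, used in limb and kidney, had all 5 of its summits upstream, at -217 to -42 bp from the start. Its fold was 5.53 and 6.43 in the WT lists that called it, WT 2 and WT 3, and 4.41, 4.61 and 4.08 in cKO. Every called WT value was thus above every cKO value, while WT 1 had no peak. The share of all genes with such an order was not counted, so no difference between genotypes is read from it. Hoxa5, which acts in lung and axial skeleton, had its summits 369 to 762 bp downstream and a fold of 4.46, 5.20 and 4.92 in WT and 4.40, 4.83 and 3.73 in cKO. Hoxd8 and Hoxd9 are neighbours in the middle of Hoxd and were both open in all 6 lists within 1 kb. The fold at Hoxd8 was 4.44, 4.50 and 6.67 in WT and 6.28, 4.53 and 4.24 in cKO. That at Hoxd9 was 3.84, 4.13 and 5.27 in WT and 6.13, 4.10 and 4.64 in cKO. WT 3 and cKO 1 were the highest 2 lists at Hoxd8, Hoxd9 and Hoxd13 alike, and the genotypes overlapped at all 3.

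The summits at Hox genes lay mostly downstream of the start. Among genes with a peak within 1 kb, the strongest summit was at a median of 438, 413 and 396 bp downstream for Hox genes in WT and 447, 287 and 384.5 bp in cKO. For all protein-coding genes the medians were 12 to 30 bp. In the 6 lists 58.8% to 86.7% of Hox genes with a peak had it more than 100 bp downstream, against 27.3% to 31.8% of protein-coding genes. The starts of 6 of the 38 genes differ by more than 100 bp between GENCODE and the RefSeq Select transcript. With RefSeq Select starts, an alternative added after seeing the data, the medians were 154 to 413.5 bp for Hox genes and 5 to 23 bp for protein-coding genes. The shift was thus present with either annotation and in both genotypes.

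**Figure D4:**
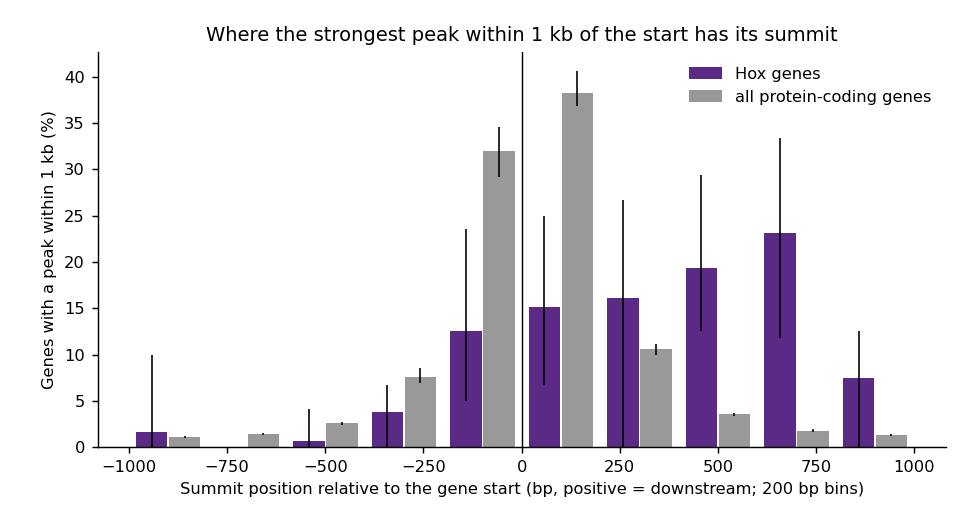
Position of the strongest summit within 1 kb relative to the gene start, in bins of 200 bp, as the percentage of genes with such a peak. Bars are means over the 6 lists and whiskers the lowest and highest list, for Hox genes and for all protein-coding genes. Protein-coding genes pile up in the 2 bins beside the start, and Hox genes spread over the 800 bp downstream of it.

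Starts rich in CpG are open in most tissues, so the Hox genes were also set beside genes of like composition. A start was called CpG-rich where the observed to expected ratio of CpG within 500 bp on either side was at least 0.6, which held for 24 of 38 Hox genes. Of these 24, 9 (37.5%) were open within 1 kb in all 6 lists and 6 (25.0%) in none. Of the 10274 CpG-rich protein-coding genes, 87.6% were open in all 6 and 5.46% in none. Of the other 14 Hox genes, 2 (14.3%) were open in all 6 and 4 (28.6%) in none. Over all protein-coding genes, CpG-rich or not, the shares were 53.5% and 37.9%. The shares among protein-coding genes with other starts alone were not computed, so these 14 were not set beside genes of like composition.

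Hox peaks also differed from other peaks in where they lay. Their summits were in coding exons for 21.7% (18 of 83), against 4.52% of all consensus peaks, and in intergenic DNA for 16.9% against 36.5%. Introns held 34.9% against 42.5%. In the 201 bases around the summit the median GC content was 61.2% against 51.2%, and the median number of CG dinucleotides 13 against 3. Of the 27 Hox peaks in all 6 lists, 22 stood under the 50th percentile of fold, with a range from 3.64 to 63.1.

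Motifs were sought in the same 201 bases on both strands. The GATA letters AGATAA or TGATAA were in 2 of 83 Hox peaks (2.41%) against 20.5% of all peaks, and the ARID3 letters ATTAAA or ATCAAA in 5 (6.02%) against 16.1%. AP-1, as TGACTCA or TGAGTCA, was in 1 (1.2%) against 8.10%. HNF4, as CAAAGTCCA or CAAAGTTCA, was in 0 against 2.51%, and CTCF, searched by its consensus, in 0 against 3.15%. A count of 0 in 83 allows a share of up to 3.61%, so a lower share than in all peaks was not detectable for either. CDX, as TTTATG or TTTATT, a homeodomain factor of the gut epithelium, was in 20 (24.1%) against 23.1%. The homeobox core TAATTA was in 3 (3.61%) against 4.12%. No set of letters contains another, and a match is not a bound site. Hox windows were richer in G and C, as given above, and the part of composition in these shares was not tested.

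The 5 Hox peaks with the ARID3 letters, the site sought by the factor deleted in the cKO, were called in 1 to 6 lists. Those in all 6 lay at Hoxc6, 438 bp downstream of its start, and beyond Hoxa13, at -10044 bp from its start and at the edge of the window (chr6:52270420-52271381). The Hoxa13 peak had a fold of 4.93, 8.19 and 9.33 in WT and 7.55, 5.78 and 6.95 in cKO, and its genotypes overlapped. Both were named after their motifs were seen.

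Genes that act with or upon the Hox clusters were set beside the 53.5% of protein-coding genes open within 1 kb in all 6 lists, with no test of a difference. Of 9 genes for the cofactors that bind DNA with Hox proteins, 5 had a peak within 1 kb in all 6 lists, among them Pbx2 and Pknox1, and 0 had one in no list. Meis1 had one in 5 lists. Of the 6 ParaHox genes, relatives of the Hox genes outside the clusters, Cdx2, Pdx1 and Gsx1 were open in all 6, Cdx1 in 5, Gsx2 in 2 and Cdx4 in 0. Of 20 Polycomb and Trithorax genes, which silence and sustain the clusters, 17 were open in all 6, among them Ezh2, Suz12, Rnf2 and Kmt2a, and 3 in none. The 17 open ones were those with CpG-rich starts, and 87.6% of all CpG-rich protein-coding genes were open in all 6. Among genes open in all 6, the median percentile of fold was 87.4 for cofactors and 84.8 for Polycomb and Trithorax genes, and 85.3 for protein-coding genes. For the 11 Hox genes it was 32.6. The 46 homeobox genes outside the clusters that were examined lay closer to the Hox genes, with 16 open in all 6, 11 in none and a median percentile of 47.8. Among them Evx1 and Evx2, which border Hoxa and Hoxd, were open in 6 and 3 lists. In the narrow window 2 of the 46 had a peak in all 6 lists and 31 in none, beside 0 and 24 of the 38 Hox genes. Few narrow-window peaks in all 6 lists were thus not particular to the Hox clusters.

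The last comparison was between genotypes. The number of Hox peaks was 39, 59 and 62 in WT and 67, 51 and 58 in cKO, a mean of 53.3 ± 12.5 (SD, n = 3) and 58.7 ± 8.02. The genotypes overlapped, and the difference of 5.33 was smaller than either SD. It took the other sign, at -1.83, without WT 1, and at -2 when all lists were shortened to the length of the shortest. Per 1000 peaks of a list there were 1.08 ± 0.106 in WT and 1.13 ± 0.0253 in cKO. Peaks covered 4.76% ± 1.60 of the windows in WT and 6.26% ± 1.81 in cKO, and these overlapped too.

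No Hox peak was particular to a genotype by the strictest count, and such peaks were rare in the genome too. Of the 83, 0 were found in every cKO list and absent from every WT list, against 0.464% of all consensus peaks. The count was 0 the other way round, against 0.111%. With shares this low, counts of 0 among 83 do not set the Hox peaks apart from other peaks. With at least 2 of 3 lists of a genotype and 0 of the other, there were 2 of 83 for cKO, against 3.34% of all consensus peaks, and 0 for WT, against 1.25%. Both lay in Hoxb, at -10442 and -2817 bp from the main start of Hoxb3 (chr11:96332793-96333824 and chr11:96340778-96341276). They were called in cKO 1 and 3, at a fold of 3.94 and 3.15 for the first and 5.58 and 3.85 for the second. With 1 list left out and every other list of the genotype required, the count for cKO was 4 without WT 3, against 1.99% of all consensus peaks, and 2 without cKO 2, against 2.61%. The count for WT was 1 without cKO 1, against 0.476%.

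Fold was compared by limma on the log2 scale, after quantile normalisation, for the 32748 consensus peaks called in all 6 lists, with Benjamini-Hochberg adjustment over all of them. Of the 27 Hox peaks, 0 reached an adjusted p under 0.05, as did 0% of all peaks tested, and the smallest adjusted p was 0.672 by limma. At an unadjusted p under 0.05 there was 1 of 27, against 7.37% of all. The genotype means were higher in cKO for 12 and in WT for 15 (15 and 12 without normalisation between lists), with a median difference of -0.01 (log2, cKO minus WT) beside -0.02 over all peaks. The differences ran from -0.45 to 0.29 with standard errors of 0.14 to 0.21, and the median 95% interval reached 0.38 to either side. Normalised values did not overlap, with cKO higher, for 1 of 27 against 5.86% of all peaks, and with WT higher for 1 of 27 against 6.08%. Differences smaller than these intervals were not detectable. After adjustment the limit was wider, since the difference of -0.45, whose interval excluded 0, had an adjusted p of 0.672 by limma. A p above the threshold does not show that the genotypes were alike.

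**Figure D5:**
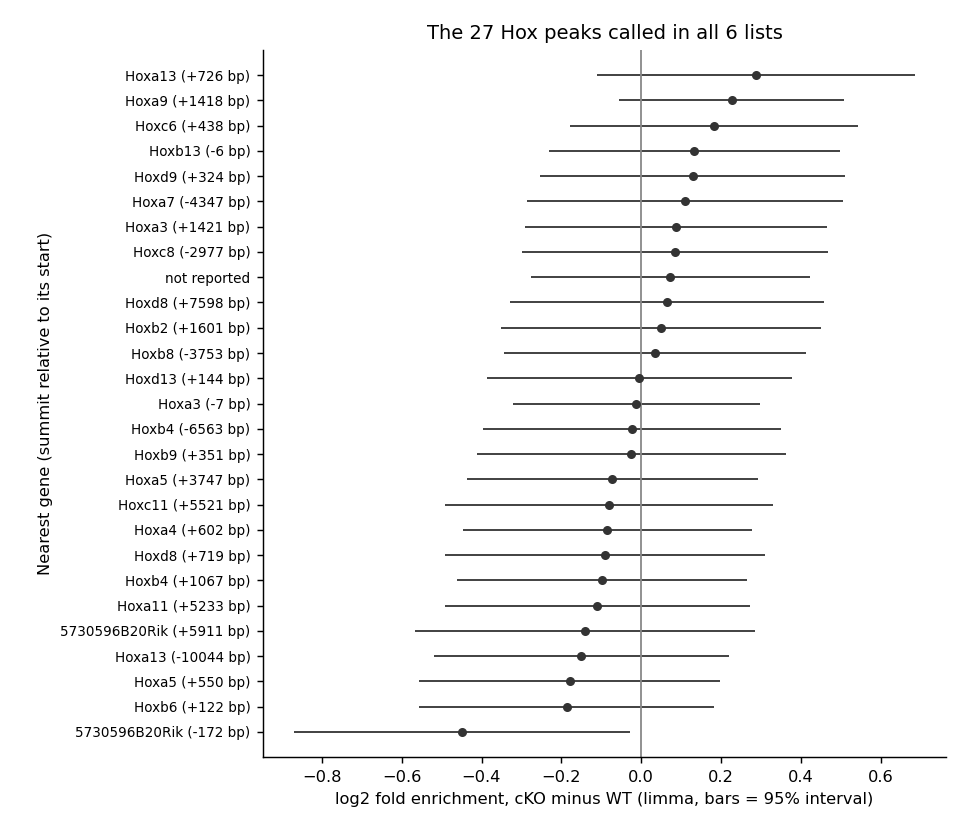
Difference in log2 fold enrichment (cKO minus WT, limma) for the 27 Hox peaks called in all 6 lists, named by the nearest gene and the distance of the summit from its start, with bars for the 95% interval. The points run from -0.45 to 0.29, and 26 of the 27 intervals include 0.

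The 5 Hox peaks with the smallest p were the following. The first lay inside the span of Hoxa3 and nearest to 5730596B20Rik, at -172 bp from its start (chr6:52177030-52177586). Its fold was 4.15, 5.80 and 6.90 in WT and 5.33, 3.05 and 4.56 in cKO, at a log2 difference of -0.45 ± 0.20 (SE) and an adjusted p of 0.672 by limma. Before normalisation its genotypes overlapped, and cKO 2 was the lowest. Leaving out each sample in turn gave differences from -0.58 to -0.22, the smallest without cKO 2.

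The second lay in a coding exon of Hoxa9, a posterior gene also known from leukaemia, 1418 bp downstream of the main start. Its fold was 2.75, 2.77 and 2.92 in WT and 2.92, 3.47 and 2.81 in cKO, at a difference of 0.23 ± 0.14 and an adjusted p of 0.700 by limma. Its normalised values were higher in every cKO list, while its fold as deposited overlapped.

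The third lay in a coding exon of Hoxa13, 726 bp downstream of the start, at a difference of 0.29 ± 0.19 and an adjusted p of 0.714 by limma. Its fold was 2.88, 4.06 and 5.26 in WT and 3.98, 4.92 and 4.69 in cKO. It was 0.08 without WT 1, where the peak was lowest.

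The other two were the Hoxb6 peak, whose fold is given above, and the Hoxc6 peak. Their differences were -0.19 ± 0.18 and 0.18 ± 0.18, with an adjusted p of 0.777 and 0.778 by limma. At all 5 the deposited values of the genotypes overlapped.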

How the data were processed

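Crypts of 3 WT and 3 Arid3a cKO samples were profiled by ATAC-seq. The authors trimmed reads, aligned them to GRCm38 with BWA in the nf-core ATAC-seq pipeline, removed blacklisted regions and called narrow peaks for each sample with MACS2 (no input control is described). Every peak in the 6 deposited lists comes with a score, which in at least 99.9% of peaks is 10 times the −log10 q without decimals, a fold (the ratio of the summit pileup to the local background), a −log10 p and a −log10 q. Read counts per peak are not in the lists, so the count test of the study was not used here and the log2 fold was tested in its place.

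The 61 to 92 peaks per list outside chromosomes 1 to 19, X and Y were left out. Genes, exons and main starts (the APPRIS principal transcript) came from GENCODE M21, sequence from GRCm38.p6 and alternative starts from RefSeq Select. Coordinates are 1-based. Pileup was recovered as the whole number that satisfies both fold and p, which was found for 100% of peaks with −log10 p up to 100. The commonest background was taken as coverage. Both are inferences and cover counting error only. Of 15 pairs of lists, 0 held the same values.

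Groups follow the genotype label. limma 3.58.1 in R 4.3.3 (lmFit, eBayes with trend) was fitted to all 6 lists without a block. On simulated data for cKO minus WT over 32748 peaks it was tested with 200 changed peaks. Python 3.11.15, numpy 2.4.6, pandas 2.3.3, scipy 1.17.1, pysam 0.24.0 and matplotlib 3.10.9 were used.

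The members, gene lists and tests were chosen with earlier results of these data known. Values per list are given for the Hox genes with the highest promoter percentile in each cluster (2 where there were as many), the first 8 by name of those with a promoter peak in 1 to 5 lists, peaks particular to a genotype and the 5 peaks with the smallest p. Alternatives were another promoter window, peak overlap, other starts, lists shortened to equal length, a −log10 q of 5 or more, no flanks, presence in at least 2 of 3 lists, other normalisations and measures, a replicate block and leaving out each sample. A further Hox gene of the annotation is not reported here and is in no count of genes, though its peaks are in the window counts.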

Additional observations from a re-analysis of the deposited data

How the results depend on the processing

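The number of Hox genes with a promoter peak in all 6 lists was 0 with the window as reported. It was 11 with the summit within 1000 bp on either side, 2 with any overlap and 1 with every annotated start. It was 1 with RefSeq Select starts and 13 with these and the wider window, both chosen after seeing the data. It stayed at 0 with −log10 q of at least 5 and with lists of equal length, and was 0 to 2 when each sample was left out. The number with a peak in no list was 24 as reported, 10 with the wider window at either set of starts, 17 to 27 under the other alternatives and 24 to 26 with each sample left out. Shares of all protein-coding genes are given above for the reported and the wider window. Under the other alternatives they were not computed, so whether the changes are particular to Hox genes was not tested. Hox peaks called in 3 of 3 cKO and 0 of 3 WT lists numbered 0 as reported, 2 with at least 2 of 3 lists, and 0 to 4 with each sample left out. The reverse numbered 0, and 0 to 1 with each sample left out. The cause of these changes was not tested, beyond the smaller number of lists that must agree.

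The difference in Hox peaks per list ran from -2 to 9.67 over all alternatives and that in covered percentage from 0.484 to 2.46, and each moved by less than the SD between replicates. No Hox peak reached an adjusted p under 0.05 by limma under any of the 12 alternatives, where the smallest adjusted p ran from 0.393 to 1.00 and 0 or 1 Hox peak had an unadjusted p under 0.05. Among all peaks the count was 0 as reported, 1 with median centring, 4 with the replicate block and 3 without WT 3. The differences of the 5 named peaks kept their direction under every alternative that gave a value. With −log10 q of at least 5 in every list, 4 of them gave none. Replicate numbers are shared by the genotypes, but the correlation of deviations of same-numbered samples was -0.272, -0.00476 and 0.127, and not every sample correlated best with its own number. These correlations did not show a pairing, but with 3 samples per genotype they cannot exclude one. With the replicate block the count of Hox peaks was 0 and the smallest adjusted p was 0.681 by limma. Pileups of 9 to 103 fragments at Hox summits limit the precision of every fold given here.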
